A study of Rhodotorula toruloides with 9 samples.

Results

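NADPH is the reducing cofactor used by the reductase that opens the d-galacturonic acid (d-galUA) pathway and by fatty acid synthesis, and R. toruloides is a yeast that stores lipid. Transcripts of 3 genes for enzymes that can supply it were followed here, out of the 8578 gene models of the strain: GND1 (RTO4_15167), ZWF1 (RTO4_10000) and MAE1 (RTO4_12761). They make up the NADPH production group of the study, which listed them beside their levels in these same libraries, so their changes are not independent evidence of a direction. All 3 were measured above 0 in every library.

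The libraries were made from mRNA of whole cells of strain IFO0880, a basidiomycete yeast, grown in yeast nitrogen base with a single carbon source and sampled in log phase according to the labels, whereas the study's methods place the harvest where growth entered stationary phase. Which of these stages the levels describe could not be settled from the files. The 9 libraries are labelled as 3 from d-galUA, 2 from glycerol and 4 from d-glucose (d-glc). By the study's methods the replicates were separate cultures inoculated from a shared starter culture, so the p-values measure the spread between such cultures. The library labelled as d-glc replicate 4 stood apart from its label: its log2(FPKM + 1) correlated at 0.987 to 0.988 with the libraries labelled glycerol and at 0.876 to 0.878 with the other d-glc libraries. Of the 84 ways to take 3 libraries, the set that matches the glycerol means in the study's own gene table contains this library, and the set that matches the d-glc means does not. It was therefore counted with glycerol, which gives 3 libraries per carbon source, and results are also given without it and with groups as labelled. Depth was 25.8 to 51.9 M mapped reads (M, mega) of 50 bases per library, with a median of 35.2.

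In the oxidative branch of the pentose phosphate pathway, glucose-6-phosphate dehydrogenase (ZWF1) takes the first step, a lactonase (the SOL genes of S. cerevisiae) the next, and 6-phosphogluconate dehydrogenase (GND1) the last. Both dehydrogenases form NADPH. Malic enzyme (MAE1) converts malate to pyruvate and reduces a nicotinamide cofactor. In S. cerevisiae Mae1 is mitochondrial and accepts either NAD or NADP, whereas many oleaginous fungi are known for an NADP-dependent malic enzyme that is considered a source of NADPH for lipid synthesis. Which cofactor the R. toruloides enzyme uses was not measured here, nor was any enzyme activity or flux.

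The genes lie on different scaffolds of the version 4 gene models. GND1 spans positions 163189 to 165797 of scaffold 7 on the minus strand. ZWF1 spans positions 759695 to 761804 of scaffold 11 on the plus strand. MAE1 spans positions 82282 to 84844 of scaffold 3, also on the plus strand. No other gene model overlaps any of them, so no second model claims reads at these positions. The spans run from the start to the end of each model. They were not divided into exons, introns or UTRs.

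GND1, the enzyme of the last oxidative step, had the highest transcript level of the 3 genes in every library. FPKM (fragments per kilobase of transcript, scaled to the mapped fragments of the library) was 2313, 2397 and 2275 in the 3 d-galUA libraries. The libraries labelled glycerol had 1197 and 1227, and 1136 was found in the library labelled as d-glc replicate 4. The 3 remaining d-glc libraries had 957, 935 and 789. Every d-galUA library thus lay above every glycerol library, and every glycerol library above every d-glc library, with no overlap of the ranges. In bulk libraries such as these, fewer cells that express a gene and less of its RNA per cell cannot be told apart. By mean FPKM GND1 ranked 38th of 8578 models on d-galUA, 82nd on glycerol and 137th on d-glc. In TPM (length-scaled abundance), which scales each library to the same total, GND1 averaged 3306 ± 102 on d-galUA, 1747 ± 79.8 on glycerol and 1243 ± 194 on d-glc (SD, n = 3 each).

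The level of GND1 on d-galUA was 1.96 times that on glycerol, and the log2 fold change of FPKM + 1 was 0.97 ± 0.11 (SE), with an adjusted p of 5.02e-05 by limma. Over d-glc it was 2.60 times higher, with a log2 fold change of 1.39 ± 0.11 and an adjusted p of 3.59e-06 by limma. The step between glycerol and d-glc was smaller, at 1.33 times, with a log2 fold change of 0.41 ± 0.11 and an adjusted p of 0.00930 by limma. This last call was lost with groups as labelled, where the log2 fold change was 0.36 (adjusted p = 0.215 by limma). The order d-galUA, glycerol, d-glc therefore separated each neighbouring pair beyond the spread of the libraries once the library labelled as d-glc replicate 4 was counted with glycerol or left out.

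**Figure D1:**
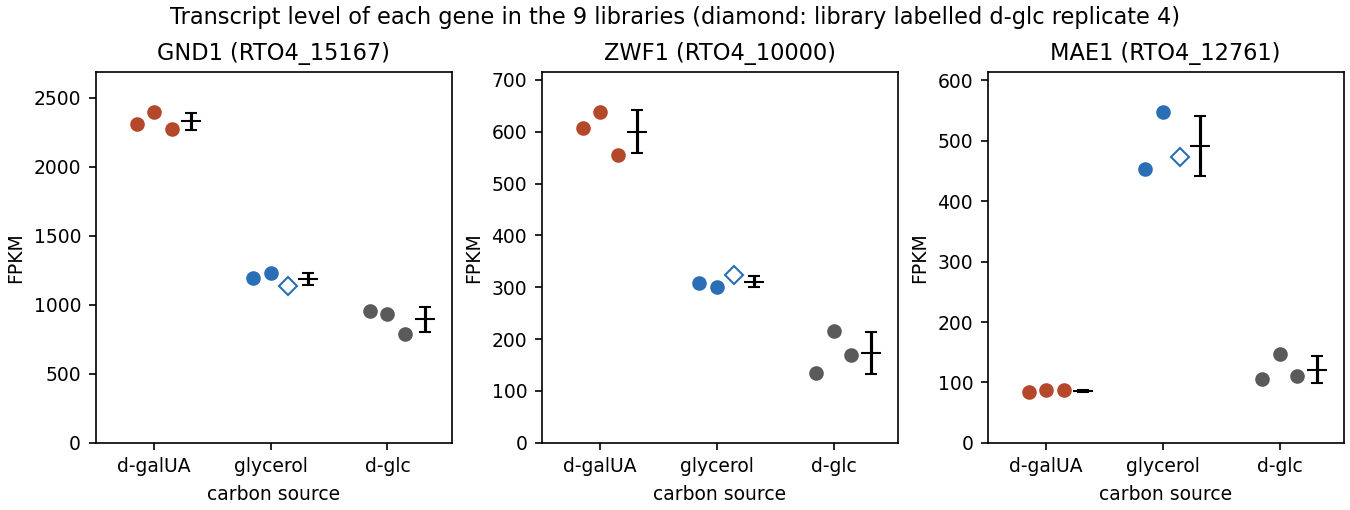
FPKM of GND1, ZWF1 and MAE1 (vertical axes, starting at 0) in each of the 9 libraries, by carbon source, with the mean and SD of 3 libraries as black bars and the library labelled as d-glc replicate 4 as an open diamond. GND1 and ZWF1 were highest on d-galUA, and MAE1 was highest on glycerol, where its 3 libraries lay between 453 and 548.

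ZWF1, the enzyme that commits glucose-6-phosphate to the pathway, had the same order of carbon sources at a lower level. Its FPKM was 607, 638 and 555 on d-galUA. The libraries labelled glycerol had 309 and 301, with 323 in the library labelled as d-glc replicate 4. On d-glc it was 134, 215 and 170, so the ranges of the 3 carbon sources did not overlap. Relative to its mean ZWF1 varied most among the d-glc libraries, with an SD of 40.7 around a mean of 173, beside an SD of 41.8 around a mean of 600 on d-galUA. In TPM ZWF1 averaged 852 ± 63.8 on d-galUA, 458 ± 20.7 on glycerol and 241 ± 66.0 on d-glc (SD, n = 3 each).

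ZWF1 was 1.93 times higher with d-galUA than with glycerol, with a log2 fold change of 0.94 ± 0.15 (SE) and an adjusted p of 0.000484 by limma. It was 3.47 times higher with d-galUA than with d-glc, with a log2 fold change of 1.81 ± 0.15 and an adjusted p of 4.79e-06 by limma. It was 1.80 times higher with glycerol than with d-glc, with a log2 fold change of 0.87 ± 0.15 and an adjusted p of 0.000701 by limma. With groups as labelled, the library labelled as d-glc replicate 4 put the highest d-glc value above both glycerol values, and the log2 fold changes were 0.97 for d-galUA over glycerol (adjusted p = 0.0666 by limma) and 0.61 for glycerol over d-glc (adjusted p = 0.218 by limma). The rise over d-glc on d-galUA kept its call in that grouping.

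MAE1 had a different order. Its FPKM was 83.8, 86.9 and 86.8 on d-galUA, the narrowest range of the 3 genes on any carbon source. The libraries labelled glycerol had 453 and 548, with 474 in the library labelled as d-glc replicate 4. On d-glc it was 106, 146 and 111. The glycerol libraries were the high ones by a wide margin, the d-galUA libraries were the lowest, and no ranges overlapped. By mean FPKM MAE1 ranked 1235th of 8578 models on d-galUA, 228th on glycerol and 873rd on d-glc. In TPM it averaged 122 ± 2.00 on d-galUA, 724 ± 88.1 on glycerol and 169 ± 39.1 on d-glc (SD, n = 3 each).

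MAE1 was 5.73 times lower with d-galUA than with glycerol, with a log2 fold change of -2.50 ± 0.13 (SE) and an adjusted p of 1.32e-07 by limma. It was 4.05 times higher with glycerol than with d-glc, with a log2 fold change of 2.02 ± 0.13 and an adjusted p of 4.94e-07 by limma. The difference between d-galUA and d-glc was much smaller, 1.41 times lower on d-galUA, with a log2 fold change of -0.48 ± 0.13 and an adjusted p of 0.00956 by limma. With groups as labelled the d-glc libraries ran from 106 to 474, which reached into the glycerol range. In that grouping the log2 fold changes were -0.97 for d-galUA over d-glc (adjusted p = 0.174 by limma) and 1.55 for glycerol over d-glc (adjusted p = 0.172 by limma), while MAE1 remained lower with d-galUA than with glycerol.

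Leaving the library labelled as d-glc replicate 4 out of the fit kept the calls of all 3 genes. The glycerol values then rested on 2 libraries, and the log2 fold changes were 0.94 for GND1, 0.97 for ZWF1 and -2.52 for MAE1 for d-galUA over glycerol. For glycerol over d-glc they were 0.44, 0.84 and 2.04 in the same order of genes, with a highest adjusted p of 0.0195 by limma, that of GND1.

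Set against the whole transcriptome, 2 of the 3 genes were higher and 1 was lower with d-galUA than with glycerol, where 25.2% of the 8479 models tested were higher and 24.1% were lower. On d-galUA against d-glc, 2 were again higher and 1 lower, beside 24.9% higher and 25.8% lower among all models. On glycerol against d-glc all 3 were higher, beside 26.7% of all models. Since models passed this often in each comparison, passing the test did not set these genes apart. Among the log2 fold changes of the 8479 models, MAE1 was the 119th lowest on d-galUA against glycerol and the 256th highest with glycerol against d-glc. ZWF1 was the 269th highest and GND1 the 455th highest on d-galUA against d-glc. The remaining ranks were less extreme. GND1 and ZWF1 were the 658th and 699th highest on d-galUA against glycerol, and the 2141st and 953rd highest on glycerol against d-glc. MAE1 was the 1784th lowest on d-galUA against d-glc.

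**Figure D2:**
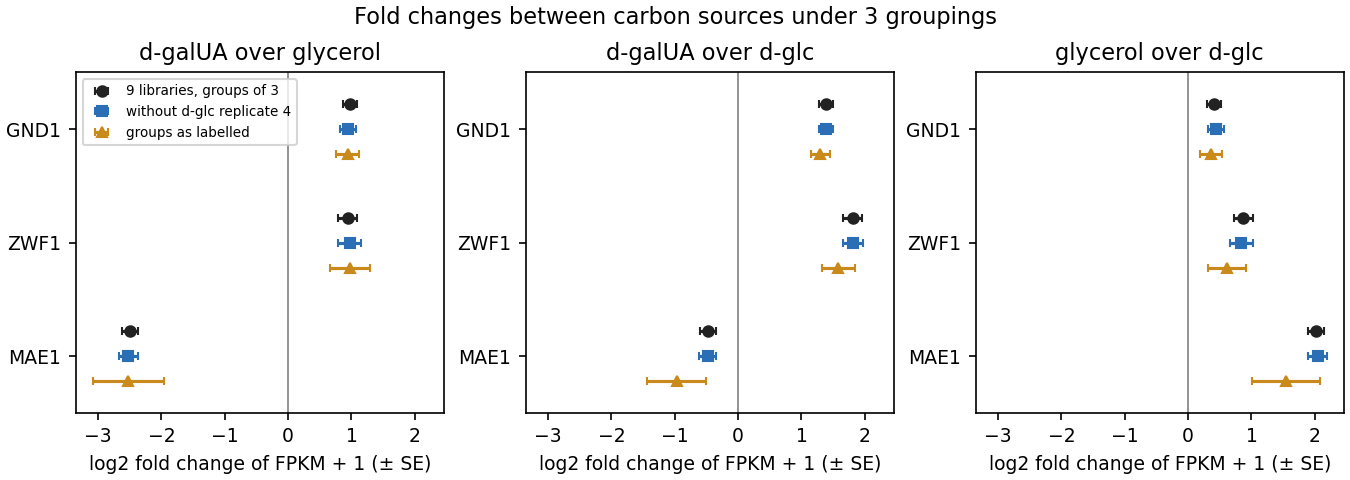
Log2 fold change of FPKM + 1 with its SE (horizontal axes) for GND1, ZWF1 and MAE1 between carbon sources, from limma with 3 libraries per carbon source (black circles), without the library labelled as d-glc replicate 4 (blue squares) and with groups as labelled (yellow triangles). Left and right of 0 are lower and higher levels in the carbon source named first. The 3 groupings gave the same sign throughout, and MAE1 on d-galUA over d-glc was -0.48 in groups of 3 and -0.97 as labelled.

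The balance between the branches was then read within each library as the summed FPKM of GND1 and ZWF1 divided by that of MAE1, which cancels the scaling of the library. The ratio was 34.8, 34.9 and 32.6 on d-galUA. The libraries labelled glycerol had 3.32 and 2.79, with 3.08 in the library labelled as d-glc replicate 4. On d-glc it was 10.3, 7.86 and 8.63. Pentose phosphate transcripts therefore exceeded malic enzyme transcripts in every library, by the widest margin on d-galUA (mean 34.1 ± 1.33), by the narrowest on glycerol (3.06 ± 0.266) and by an intermediate one on d-glc (8.91 ± 1.22; SD, n = 3 each). The ratio is a score over chosen genes and was given no test.

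The order was the same for each oxidative enzyme alone, although both ratios share MAE1 as denominator. On d-galUA against glycerol GND1 and ZWF1 were 1.96 and 1.93 times higher, while MAE1 was 5.73 times lower. With glycerol against d-glc GND1 and ZWF1 were 1.33 and 1.80 times higher, and the ratio fell since MAE1 rose more, by 4.05 times. The ratio of GND1 to MAE1 averaged 27.1 on d-galUA, 2.43 on glycerol and 7.49 on d-glc. The ratio of ZWF1 to MAE1 was 7.25, 7.34 and 6.40 on d-galUA, and averaged 0.637 on glycerol and 1.42 on d-glc, so that glycerol was the carbon source on which MAE1 exceeded ZWF1. GND1 and ZWF1 stayed close to a fixed proportion on d-galUA and glycerol, where the ratio of GND1 to ZWF1 averaged 3.89 and 3.82. On d-glc this ratio averaged 5.38, a mean raised by d-glc replicate 1, which had 7.13 and the lowest ZWF1 level of the 9 libraries.

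Of the TPM of the 3 genes together, MAE1 held 2.85% on d-galUA, 24.7% on glycerol and 10.2% on d-glc. Of all TPM in a library, GND1 and ZWF1 held 0.416% on d-galUA, 0.220% on glycerol and 0.148% on d-glc. With MAE1 added, the share was 0.428% on d-galUA, 0.293% on glycerol and 0.165% on d-glc. The summed level of the 3 genes thus kept the order of the oxidative enzymes, and the high MAE1 level on glycerol made up part of the distance to d-galUA.

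**Figure D3:**
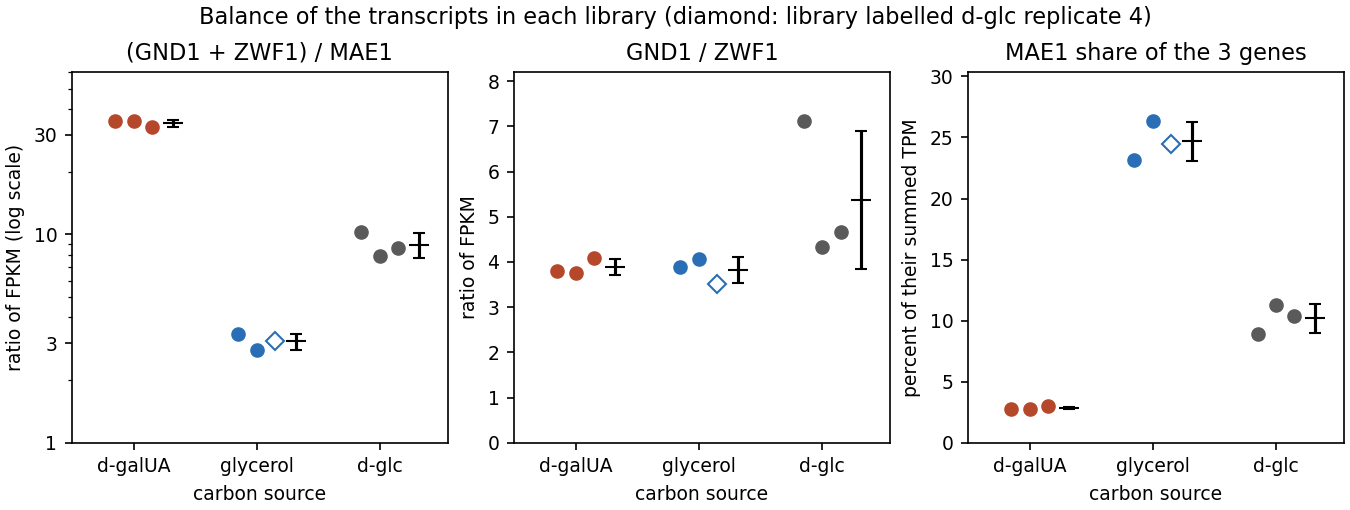
Ratio of GND1 plus ZWF1 to MAE1 in FPKM (left, log scale), ratio of GND1 to ZWF1 in FPKM (middle) and share of MAE1 in the summed TPM of the 3 genes in percent (right) for each of the 9 libraries, with mean and SD of 3 libraries as black bars and the library labelled as d-glc replicate 4 as an open diamond. The left panel shows the carbon sources apart from each other, at 32.6 to 34.9 on d-galUA, 2.79 to 3.32 on glycerol and 7.86 to 10.3 on d-glc.

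The genes around these steps were taken as 7 lists of 47 genes in all, by the S. cerevisiae ortholog that the study's gene table assigns (for the d-galUA reductases, by the pathway names the table gives). The copy of this table used here held 1999 models, mostly those with high levels on d-galUA, of which 37.2% were higher and 20.4% lower with d-galUA than with glycerol, so counts towards d-galUA in the lists start from a raised base. Apart from the 3 genes above, the lists hold 44 genes. Among these are the pathway reductases GAR1 and GaaD, which the study singled out for induction on d-galUA in these same libraries. Of the 44 list genes, 20 were higher and 7 were lower with d-galUA than with glycerol. Against d-glc, 23 were higher and 9 lower on d-galUA, beside 35.6% and 22.8% of the models in the table and 24.9% and 25.8% of all models. On glycerol against d-glc, 10 were higher and 17 lower, beside 29.1% and 30.6% of the models in the table and 26.7% of all models in each direction. The median log2 fold changes of the 44 genes were 0.29, 0.39 and -0.09 in these comparisons, beside 0.03, 0.00 and 0.02 over all 8479 models. With groups as labelled, the counts were 12 higher and 2 lower with d-galUA than with glycerol, 18 higher and 6 lower with d-galUA than with d-glc, and none in either direction with glycerol against d-glc. Without the library labelled as d-glc replicate 4, they were 18 higher and 5 lower, 23 higher and 9 lower, and 7 higher and 17 lower in the same comparisons. With groups as labelled limma made 1 call over all models for glycerol against d-glc, and 843 models were higher and 1407 lower at an unadjusted p under 0.05.

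The third oxidative gene did not follow its neighbours in the pathway. The lactonase ortholog (SOL1/SOL2/SOL3, RTO4_14499) had an FPKM of 212 ± 3.52 on d-galUA, 310 ± 33.7 on glycerol and 198 ± 31.1 on d-glc (SD, n = 3 each). It was lower with d-galUA than with glycerol, with a log2 fold change of -0.54 ± 0.12 (SE) and an adjusted p of 0.00467 by limma, where GND1 and ZWF1 were higher. On d-galUA against d-glc its log2 fold change was 0.11 ± 0.12, with an adjusted p of 0.494 by limma. On glycerol against d-glc it was higher like the other 2 oxidative genes, with a log2 fold change of 0.65 and an adjusted p of 0.00134 by limma. Its calls on d-galUA against glycerol and on glycerol against d-glc were lost with groups as labelled. Both were kept without the library labelled as d-glc replicate 4. In the nonoxidative branch, which interconverts sugar phosphates without NADPH, all 3 genes (orthologs of TKL1, TAL1 and RKI1) were higher with d-galUA than with d-glc. Their log2 fold changes were 0.49 to 0.69, where 24.9% of all models and 35.6% of the models in the gene table were higher. With groups as labelled 2 of the 3 passed over d-glc. Only the transketolase ortholog was higher with d-galUA than with glycerol, with a log2 fold change of 0.39 and an adjusted p of 0.0408 by limma. No gene of the 3 passed in that comparison in TPM, under median-of-ratios scaling or quantile normalization, with groups as labelled, or without the library labelled as d-glc replicate 4.

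Among 6 genes that feed or drain the hexose phosphate pool, the fructose-1,6-bisphosphatase ortholog FBP1 (RTO4_15423), which acts in gluconeogenesis, was higher on d-galUA, with log2 fold changes of 2.58 ± 0.16 (SE) over glycerol and 2.42 ± 0.16 over d-glc and adjusted p of 5.07e-07 and 6.76e-07 by limma. It had an FPKM of 852 ± 32.6 on d-galUA, 142 ± 7.80 on glycerol and 161 ± 37.6 on d-glc (SD, n = 3 each). It was the only list gene of the 6 with at least a 2-fold change in mean FPKM and a mean of at least 5, a rule met by 6.95% of all models as higher and 7.70% as lower on d-galUA against glycerol, and by 8.24% and 7.44% on d-galUA against d-glc. The phosphoglucose isomerase ortholog, which converts fructose-6-phosphate to the substrate of ZWF1, had a log2 fold change of 0.02 between d-galUA and glycerol (adjusted p = 0.912 by limma). Over d-glc its log2 fold changes were 0.40 on d-galUA and 0.38 on glycerol (adjusted p = 0.0359 and 0.0434 by limma). The call on glycerol over d-glc was lost with groups as labelled and without the library labelled as d-glc replicate 4. Of the 6 genes, 3 were higher with d-galUA than with d-glc in groups of 3 libraries, but only 1 with groups as labelled. The isomerase ortholog was chosen after its values were seen.

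MAE1 was 1 of 13 genes in the list of pyruvate, malate and citrate steps, which moved both ways. On d-galUA against glycerol 6 were higher and 4 lower, MAE1 included. This stood beside 25.2% higher and 24.1% lower among all models, and 37.2% and 20.4% of the models in the gene table. With groups as labelled 3 were higher and 2 lower. The pyruvate carboxylase ortholog (PYC1/PYC2, RTO4_16630), which forms oxaloacetate from pyruvate, was 2.58 times higher with d-galUA than with glycerol. The pyruvate kinase ortholog (CDC19/PYK2, RTO4_13002) was 2.41 times lower with d-galUA than with glycerol and 3.06 times lower than on d-glc. The largest change in this list was that of the ortholog of SFC1 (RTO4_12605), a mitochondrial succinate-fumarate carrier in S. cerevisiae, which averaged 192 FPKM on d-galUA, 6.83 on glycerol and 17.7 on d-glc.

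In the comparison of d-galUA with d-glc, 5 genes of the list were higher and 5 lower, beside 24.9% and 25.8% of all models. With groups as labelled 5 were higher and 2 lower. The mitochondrial malate dehydrogenase ortholog MDH1 (RTO4_11178) was 2.35 times lower on d-galUA, and both aconitase orthologs were higher, RTO4_11624 by 3.85 times and RTO4_14600 by 2.20 times. In the comparison of glycerol with d-glc, 2 were higher and 7 lower, beside 26.7% of all models in each direction. None passed with groups as labelled. The genes that were higher with 3 libraries per carbon source were MAE1 and the aconitase ortholog RTO4_11624, at 3.22 times. SFC1 was lower there, with a log2 fold change of -1.24.

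Other enzymes that can form NADPH did not share 1 pattern. An aldehyde dehydrogenase ortholog (ALD2-ALD6, RTO4_12042), some of whose S. cerevisiae relatives use NADP, averaged 439 FPKM on d-galUA, 642 on glycerol and 154 on d-glc. Like MAE1 it was highest on glycerol, 4.17 times above d-glc, but on d-galUA it was 2.85 times above d-glc where MAE1 was below it. With groups as labelled no gene of this list passed in any comparison, and MAE1 did not pass on d-galUA against d-glc. The isocitrate dehydrogenase ortholog (IDP1/IDP2/IDP3, RTO4_11129) and a folate enzyme ortholog (MIS1/ADE3, RTO4_15366) passed the test in none of the 3 comparisons. Their mean FPKM lay between 604 and 670 and between 265 and 303, and both were chosen for mention after their values were seen.

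On the side of NADPH use, 15 reductase genes were listed, of which 9 were higher and 1 lower with d-galUA than with glycerol. Of all models 25.2% were higher and 24.1% lower, beside 37.2% and 20.4% of the models in the gene table. With groups as labelled 6 of the 15 passed, each as higher on d-galUA. The 15 include GAR1 and the GaaD homolog, which the study singled out for induction on d-galUA in these same libraries. The calls of GAR1 and the GaaD homolog are therefore not independent evidence of a direction, and the counts were not recomputed without them. The d-galacturonate reductase gene GAR1 (RTO4_11882) was 120 times higher with d-galUA than with glycerol and 64.8 times higher than on d-glc. The GaaD homolog (RTO4_9774), which reduces glyceraldehyde at the other end of the pathway, was 5.69 times higher than on glycerol and 7.59 times higher than on d-glc. The ortholog of NCP1 (RTO4_13286), the reductase that passes electrons from NADPH to cytochromes P450, was 4.51 times higher than on glycerol and 2.21 times higher than on d-glc. Also higher were 3 orthologs of ADH6/ADH7, NADPH-dependent alcohol dehydrogenases in S. cerevisiae, by 52.4 times (RTO4_13562), 48.8 times (RTO4_13947) and 4.36 times (RTO4_13554) over glycerol.

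Against d-glc, 7 of the 15 reductase genes were higher on d-galUA and 3 lower, where 24.9% of all models were higher and 25.8% lower. The 7 again include GAR1 and the GaaD homolog. Among the 3 was the glutamate dehydrogenase ortholog (GDH1/GDH3, RTO4_12248), 2.04 times lower on d-galUA. The ADH6/ADH7 orthologs were 124 times (RTO4_13562), 7.67 times (RTO4_13947) and 28.8 times (RTO4_13554) higher. On glycerol against d-glc 3 of the 15 were higher and 9 lower, beside 26.7% of all models in each direction. In TPM these counts were 4 and 6, and with groups as labelled none passed. In fatty acid synthesis, all 4 genes were higher with d-galUA than with d-glc and 3 were higher than on glycerol, by log2 fold changes of 0.46 to 0.72. Of all models 25.2% were higher over glycerol and 24.9% over d-glc. In TPM 2 of the 4 genes passed over glycerol, where 1867 of 8479 models were higher. With groups as labelled 2 passed over glycerol and 3 over d-glc, where 835 and 983 models were higher. A fatty acid synthase ortholog (RTO4_8777) was the exception, with a log2 fold change of 0.00 on d-galUA against glycerol, and was 2.07 times higher on d-galUA and 2.09 times higher with glycerol than with d-glc.

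**Figure D4:**
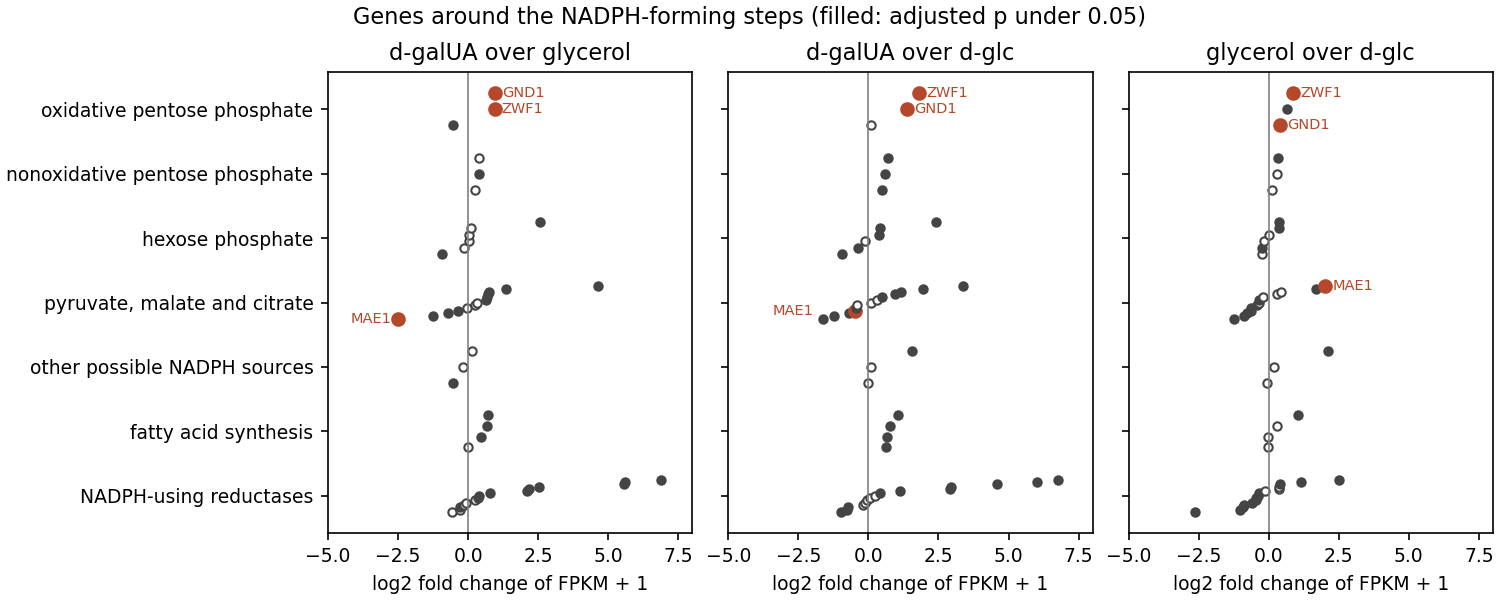
Log2 fold change of FPKM + 1 (horizontal axes) of the 47 genes in 7 lists for each pair of carbon sources, with GND1, ZWF1 and MAE1 in red and filled points for genes with an adjusted p under 0.05 by limma. MAE1 lies at -2.50, the lowest of its list, on d-galUA over glycerol and at 2.02, the highest of its list, on glycerol over d-glc.

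Over the 9 libraries, log2(FPKM + 1) of GND1 and ZWF1 correlated at a Pearson r of 0.944, while MAE1 correlated at -0.387 with GND1 and at -0.179 with ZWF1. These are descriptions over libraries that fall into 3 carbon sources. The closest pattern to each gene was sought among the 1950 models with a mean FPKM of at least 10 and at least a 2-fold difference between carbon sources. For GND1 the first 5 were RTO4_15951, RTO4_12061, RTO4_9846, RTO4_12920 and RTO4_10143, with r of 0.989 to 0.994. RTO4_12061 is the aldolase gene of the d-galUA pathway (GaaC homolog), which averaged 6397 FPKM on d-galUA, 134 on glycerol and 24.5 on d-glc, so the shape was alike while the span was far larger than that of GND1.

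For ZWF1 the first 5 were RTO4_16607, RTO4_15276, RTO4_13796, RTO4_16145 and RTO4_9288, with r of 0.989 to 0.995. RTO4_16607 is an ortholog of CYB2, a lactate dehydrogenase in S. cerevisiae, and averaged 78.6 FPKM on d-galUA, 35.5 on glycerol and 16.1 on d-glc. RTO4_16145 is an ortholog of ANT1, a peroxisomal adenine nucleotide carrier in S. cerevisiae, and had 61.8 on d-galUA, 39.0 on glycerol and 24.8 on d-glc. For MAE1 the first 5 were RTO4_13381, RTO4_11738, RTO4_13100, RTO4_15962 and RTO4_16311, with r of 0.993 to 0.998. The widest span of these was that of RTO4_13100, which averaged 4.81 FPKM on d-galUA, 247 on glycerol and 12.0 on d-glc.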

How the data were processed

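Whole-cell mRNA of R. toruloides IFO0880 was sequenced by the authors as 50-base reads in 9 libraries, and the labels' processing notes name CASAVA, bcl2fastq 2.17, HISAT2 2.1.0 and StringTie 1.3.3b. The deposited FPKM is relative to transcript length and mapped reads of a library. TPM, as deposited, carries this estimate rescaled to a common total per library, and the deposited coverage is the mean read depth over a gene. Whether counting used strand, and how reads shared by similar genes such as the ADH6/ADH7 orthologs were divided, is not given in the sources used here.

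The test was run in R 4.3.3 with limma 3.58.1 on log2(FPKM + 1), all libraries in 1 fit with a mean-variance trend, two-sided, with Benjamini-Hochberg adjustment over the 8479 models above 0 in at least 1 library. The threshold was an adjusted p of 0.05. Fold differences are ratios of mean FPKM, and log2 fold changes understate the change of low genes. Depth was computed from coverage and FPKM. Means, ratios and correlations came from pandas 2.3.3, numpy 2.4.6 and scipy 1.17.1 under Python 3.11.15, and plots from matplotlib 3.10.9. The fit was tested on simulated data.

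Genes named in the text were the 3 genes, their SOL ortholog, adjacent models, the 5 models most alike in pattern, and list genes past the threshold with at least a 2-fold change in mean FPKM. Outside this rule the TKL1, TAL1, RKI1, PGI1, IDP1/IDP2/IDP3 and MIS1/ADE3 orthologs were chosen after their values were seen. The genes and lists were chosen with earlier results of these data known. Alternatives covered the pseudocount (0.1 and 5), a minimum mean FPKM of 1, TPM, median-of-ratios scaling, quantile normalization and limma without a trend. They also covered pairwise t tests with Ballgown's library size term, groups as labelled, a block for the replicate number, and the omission of each library in turn. The study's Ballgown test across all 3 carbon sources at once was not rerun.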

Additional observations from a re-analysis of the deposited data

Results flagged for a closer look

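MAE1 in the 4 libraries labelled d-glc stood out by the distance of a single library from the rest. The library labelled as d-glc replicate 4 stood at an FPKM of 474, against 106, 146 and 111 in d-glc replicates 1, 2 and 3, and its gap to the nearest of them was 0.891 of the whole range of the 4 values. Of 4 groups of libraries looked at in this way 1 was singled out, and chance singles out about 1 group in 20. The group singled out was already known to hold the library that matched glycerol, so this rate adds no support. The same library lay within the range of the libraries labelled glycerol, which had MAE1 levels of 453 and 548.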

How the results depend on the processing

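The 3 genes in 3 comparisons gave 9 results, each recomputed under 19 alternatives. Of these 171 fits 166 kept the direction and the call, 5 lost the call and 0 reversed. The 5 losses came with groups as labelled, where log2 fold changes were 0.97 for ZWF1 on d-galUA over glycerol, -0.97 for MAE1 on d-galUA over d-glc, and 0.36 for GND1, 0.61 for ZWF1 and 1.55 for MAE1 on glycerol over d-glc. In that grouping the mean ratio of GND1 plus ZWF1 to MAE1 on d-glc was 7.46, against 8.91 with 3 libraries. The d-glc ratios then ran from 3.08 to 10.3 and overlapped the glycerol range of 2.79 to 3.32. Grouping as labelled also left 835 models higher and 729 lower with d-galUA than with glycerol, 983 and 910 for d-galUA against d-glc, and 1 and 0 for glycerol against d-glc, beside 2138 and 2042, 2113 and 2185, and 2268 and 2262 with 3 libraries per carbon source. limma gave 843 higher and 1407 lower models at an unadjusted p under 0.05 in the last of these. These losses came from the place of a single library, since all 9 calls were kept without it. Leaving out a library gave 0.33 to 0.46 for GND1 and 0.70 to 1.04 for ZWF1 on glycerol over d-glc, and -0.57 to -0.34 for MAE1 on d-galUA over d-glc, with every call kept. With the replicate number as a block all 9 calls were kept, with 0.39 for GND1 on glycerol over d-glc (adjusted p = 0.0468 by limma), and 1726 models were higher and 1542 lower with d-galUA than with glycerol. The numbers did not pair the libraries: deviations correlated at -0.15 to 0.21 in 7 pairs that share a number, and 2 of 8 libraries correlated best with their own number. In TPM the 44 list genes had 13 higher and 13 lower with glycerol than with d-glc, beside 10 and 17 in FPKM. No called list gene changed sign under TPM, median-of-ratios scaling or quantile normalization.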

Other observations

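The gene models next to the 3 genes were also read. RTO4_9999, which ends 1001 bases before ZWF1 on the same strand of scaffold 11, averaged 154 FPKM on d-galUA, 1413 on glycerol and 144 on d-glc. Its log2 fold changes were -3.19 on d-galUA over glycerol and 3.33 on glycerol over d-glc, so it was high on the carbon source where MAE1 was high, while ZWF1 itself was highest on d-galUA. RTO4_10001, which starts 641 bases after ZWF1 on the same strand, averaged 1.98 FPKM on d-galUA, 2.06 on glycerol and 14.9 on d-glc. Beside GND1, RTO4_15168 lies 61 bases away on the same strand and had 77.7 ± 8.50 on d-galUA and 90.3 ± 5.55 on glycerol (SD, n = 3 each), with a log2 fold change of -0.35 on d-galUA over d-glc, and RTO4_15166 had 5.23 on d-galUA, 13.2 on glycerol and 3.43 on d-glc. Beside MAE1, RTO4_12760 had 5.57 on d-galUA, 17.0 on glycerol and 11.7 on d-glc. It had the order of MAE1, with log2 fold changes of -1.45 on d-galUA over glycerol, -0.95 on d-galUA over d-glc and 0.50 on glycerol over d-glc, all past the threshold by limma. RTO4_12762, which lies 100 bases away on the opposite strand, had 12.2 on d-galUA, 6.75 on glycerol and 10.3 on d-glc.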
